A study of Ovis aries with 7 samples.

Results

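Messenger RNA of 4 chaperone genes, HSP90AA1, DNAJA1, TCP1 and CRYAB, was followed in the hypothalamus of sheep fetuses after a period of low oxygen. The genes were selected by name: every non-control probe that the array files assign to one of them was taken, which gave 5 probes among 15008 and 4 genes among the 969 that could be named. All 5 probes were well above background on all 7 arrays and passed the filter for testing, and none was saturated on any array. Ovine fetuses near the end of gestation, fitted earlier with catheters, made up both groups. In 3 of them, called hypoxia, the ewe breathed gas of low oxygen content for 30 min and normal gas for another 30 min before the hypothalamus was taken. The 4 control fetuses were kept at normal oxygen over the same 60 min. The labels name no genotype, strain or drug, and no gestational age in days. Each fetus has its own array, and p-values measure the spread between arrays of 1 group. That spread mixes fetus with slide among controls and holds no slide difference among hypoxia arrays, as set out below.

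Chaperones bind proteins that are unfolded or only partly folded and keep them from clumping until they reach their working shape. HSP90AA1 encodes the stress-inducible cytosolic form of HSP90, which holds steroid hormone receptors and many kinases in a state ready for activation. DNAJA1 is an HSP40 co-chaperone that hands clients to HSP70 and stimulates its ATPase. TCP1 is the alpha subunit of the ring-shaped chaperonin TRiC, which folds actin and tubulin. CRYAB, a small heat shock protein also known from the lens, acts without ATP and in the brain is expressed mainly by glia. Genes of HSP90 and HSP40 are classical targets of the heat shock factor HSF1, which is held inactive by chaperones in unstressed cells.

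What each value measures depends on the probe letters, which are shown 5′ to 3′ for that reason. The HSP90AA1 probe starts at base 1686 of its source sequence, which the files describe as a partial sheep cDNA of the alpha form of HSP90:
HSP90AA1: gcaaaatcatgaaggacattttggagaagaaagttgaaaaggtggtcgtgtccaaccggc
Both TCP1 probes come from 1 partial sheep cDNA and start 47 bases apart, so that they share 13 letters, given in capitals:
TCP1, start 558: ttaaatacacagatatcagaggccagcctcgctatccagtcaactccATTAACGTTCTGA
TCP1, start 605: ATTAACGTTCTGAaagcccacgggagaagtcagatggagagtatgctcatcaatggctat
The CRYAB probe, from a sheep RefSeq mRNA, contains a stop triplet in the reading frame of its first letter, in capitals:
CRYAB: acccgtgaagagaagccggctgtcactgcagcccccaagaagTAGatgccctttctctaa
The DNAJA1 probe was named from the description of its source, an assembled sheep transcript matched over 64% to the bovine protein, and it has a stop in every reading frame. Its first 30 letters are given:
DNAJA1: ctggtgttttatttgcagtagtgattgagt
No other probe of the array shares a run of 15 letters with any of the 5, but whether transcripts of related genes, such as other HSP90 or HSP40 forms, bind to them was not tested. Chromosome positions are not given because the array files list none for these probes.

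The test used detected no change after hypoxia in any of the 4 chaperone genes. HSP90AA1 and DNAJA1 were higher on average in hypoxia fetuses, by 1.23-fold and 1.12-fold, while the averages of TCP1 and CRYAB were nearly equal in the 2 groups. The test was limma's moderated linear model across 12711 probes with Benjamini-Hochberg adjustment at 0.05, on log2 intensity relative to the 75th percentile of each array. It called 2 of 12711 probes, or 0.0157%, so 0 of 4 genes called is no departure from the array as a whole. At an unadjusted limma p under 0.05 the array gave 15.7% of probes, 8.75% higher and 6.91% lower in hypoxia, and again 0 of 4 of the chaperone genes. The lowest value of one group lay above the highest of the other in 16.2% of probes and in none of the 5 chaperone probes.

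The arrays divide by slide in a way that touches every comparison. All 3 hypoxia arrays lie on slide 1, control replicates 1 and 2 on slide 2, and control replicates 3 and 4 on slide 3, so hypoxia and slide cannot be told apart. Between the 2 control slides, where treatment did not differ, limma called 1.23% of probes at an adjusted p under 0.05. The 75th percentile of the processed intensity ran between 2199 and 2595 on hypoxia arrays and between 2024 and 2908 on control arrays. In whole tissue, fewer cells that express a gene and less RNA per cell cannot be told apart. The labelled tissue was set beside 7 hypothalamic peptide genes (OXT, POMC, NPY, AGRP, SST, GHRH and GAL), picked after the files were seen. All 7 were well above background on all 7 arrays, as were 76.2% of all probes, so this bar says little about the tissue.

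Markers of other cell types were measured on the same arrays, and none of them passed the adjusted threshold. The 7 of 13 astrocyte markers measured had a mean level of 1.31 to 1.44 on the log2 scale in hypoxia fetuses and 0.90 to 1.30 in control fetuses. At an unadjusted limma p under 0.05, 3 of them were higher and 1 was lower in hypoxia, beside the 8.75% and 6.91% of all tested probes. The 8 of 14 endothelial, pericyte and meningeal markers averaged -2.52 to -1.71 in hypoxia and -1.95 to -1.38 in control fetuses, and all 8 had the lower mean in hypoxia, 3 of them at an unadjusted limma p under 0.05, beside the same 6.91%. The ranges of the endothelial means overlap, while those of the astrocyte means do not, though the lowest hypoxia mean lies only just above the highest control mean. Groups did not overlap, in either direction, for 4 of the 7 astrocyte markers and 0 of the 8 endothelial, pericyte and meningeal markers. Over all tested probes that share was 16.2%. Only NEFH stood for neurons (-2.88 to -2.47 in hypoxia, -3.46 to -2.43 in control) and only MB for muscle (-4.71 to -4.64 in hypoxia, -5.09 to -4.39 in control). None of 17 oligodendrocyte lineage markers was measured under a name used here. The part of these cell types in the chaperone values was not tested.

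HSP90AA1 had processed intensities of 21861, 16710 and 19273 in hypoxia replicates 1 to 3, against 11422, 12251, 20051 and 18728 in control replicates 1 to 4. Relative to each array's 75th percentile these are log2 levels of 3.07, 2.93 and 3.04 in hypoxia and 2.47, 2.60, 2.79 and 2.98 in control. The hypoxia levels lie close together, 3 of 4 controls lie below all of them, and control replicate 4 lies above hypoxia replicate 2. The means were 3.01 ± 0.08 (SD, n = 3) in hypoxia and 2.71 ± 0.22 (SD, n = 4) in control, a log2 difference of 0.30 (SE 0.14) with a 95% interval of -0.02 to 0.63. The adjusted limma p was 0.345. An exact 2-sided permutation test of the same levels gave p = 0.114, where 35 splits allow no value under 0.0286. A difference at least as far above control was found in 18.1% of all tested probes.

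**Figure D1:**
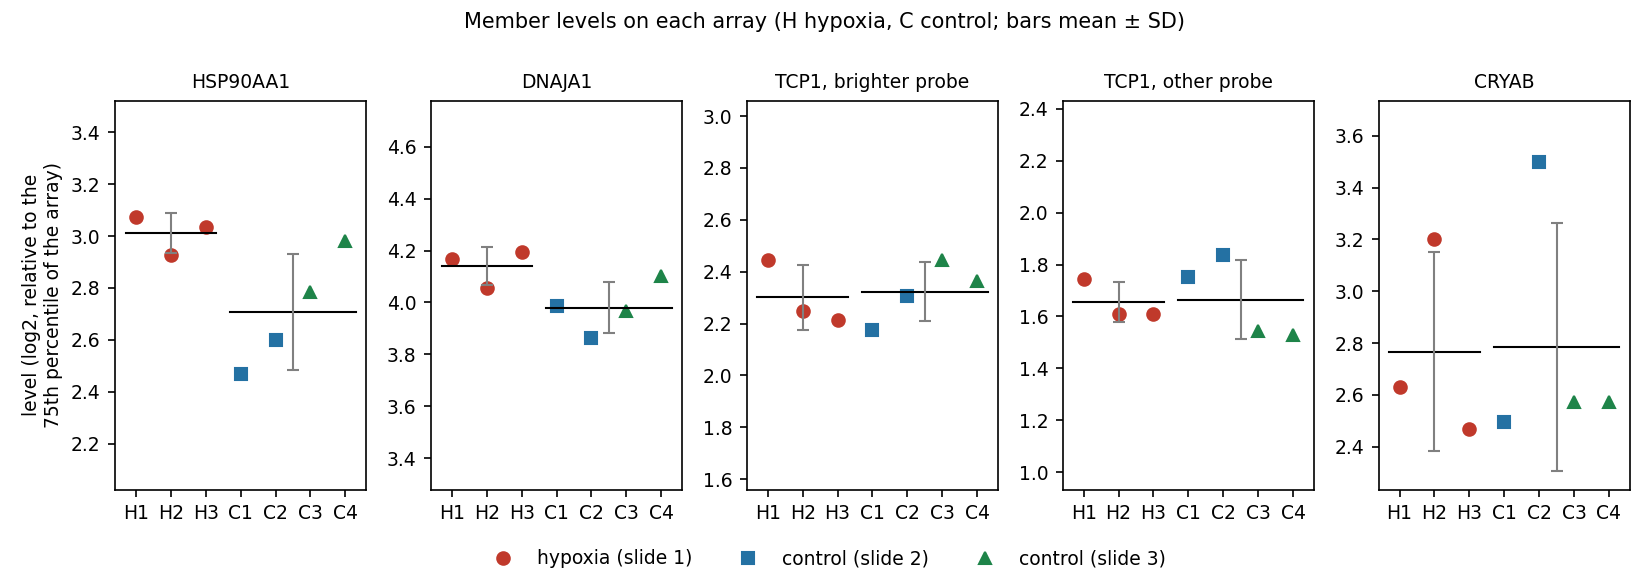
Log2 level of each chaperone probe on each array, relative to the 75th percentile of that array's non-control spots, with hypoxia arrays (H1 to H3, red circles) left of control arrays (C1 to C4, blue squares for slide 2, green triangles for slide 3). Horizontal lines are group means, grey bars are 1 SD either way, and all panels span the same number of log2 units. HSP90AA1 lies between 2.93 and 3.07 in hypoxia and between 2.47 and 2.98 in control, and CRYAB stands highest in control replicate 2 at 3.50.

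HSP90AA1 was higher in both controls of slide 3 than in both of slide 2, where slide and fetus cannot be told apart. Its mean was 2.88 on control slide 3 and 2.53 on control slide 2, a log2 difference of 0.35 (SE 0.14, adjusted p = 0.464) between fetuses of the same treatment. That is larger than the 0.30 between hypoxia and control. Against slide 2 alone hypoxia was higher by 0.48 (adjusted p = 0.120), and against slide 3 alone by 0.13 (adjusted p = 0.712). Both values have the sign of the whole comparison, and neither passed the threshold.

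DNAJA1 had processed intensities of 46635, 36614 and 43021 in hypoxia and 32700, 29415, 45456 and 40751 in control. Intensities of different probes were not set against each other, since they also depend on the probe. Its log2 levels were 4.17, 4.06 and 4.19 in hypoxia replicates 1 to 3, against 3.99, 3.86, 3.97 and 4.10 in control replicates 1 to 4. As for HSP90AA1, only control replicate 4 reaches into the hypoxia range, again above hypoxia replicate 2. The log2 difference was 0.16 (SE 0.10), with a 95% interval of -0.08 to 0.40. The adjusted limma p was 0.462 and the exact 2-sided permutation p was 0.0857. Of all tested probes, 31.5% were at least as far above control, so a difference of this size is common on these arrays.

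DNAJA1 varied little between fetuses: the pooled SD within groups was 0.09, and 6.66% of tested probes had a smaller one. Between the control slides DNAJA1 differed by 0.11 (slide 3 minus slide 2, SE 0.13, adjusted p = 0.813). Hypoxia was higher by 0.22 against slide 2 alone and by 0.11 against slide 3 alone.

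TCP1 had no difference that the test could detect on either probe. The brighter probe, starting at base 605, had log2 levels of 2.44, 2.25 and 2.21 in hypoxia, against 2.17, 2.31, 2.44 and 2.37 in control. The hypoxia values fall within the control range, apart from replicate 1, which lies level with the highest control. The log2 difference was -0.02 (SE 0.11), its 95% interval ran from -0.28 to 0.24, and the adjusted limma p was 0.947. The interval therefore holds changes of up to 1.22-fold downward and 1.18-fold upward. For the probe starting at base 558 the levels were 1.75, 1.61 and 1.61 in hypoxia, against 1.75, 1.84, 1.55 and 1.53 in control. Here hypoxia replicates lie between the 2 pairs of controls, and the log2 difference was -0.01 (SE 0.12, 95% interval -0.28 to 0.26, adjusted p = 0.977).

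Although the 2 TCP1 probes gave the same group difference, they did not run in parallel over the arrays. The brighter probe exceeded the other by 0.70, 0.64 and 0.60 on the log2 scale in hypoxia, against 0.42, 0.47, 0.90 and 0.84 in control replicates 1 to 4. Sorted by size, the gap was smallest on slide 2, intermediate on the hypoxia slide and largest on slide 3, with no overlap between the 3 slides. On control slide 3 the brighter probe was higher than on slide 2 by 0.16 (SE 0.14), whereas the other probe was lower there by 0.26, a slide 3 minus slide 2 difference of -0.26 (SE 0.12, adjusted p = 0.548).

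**Figure D2:**
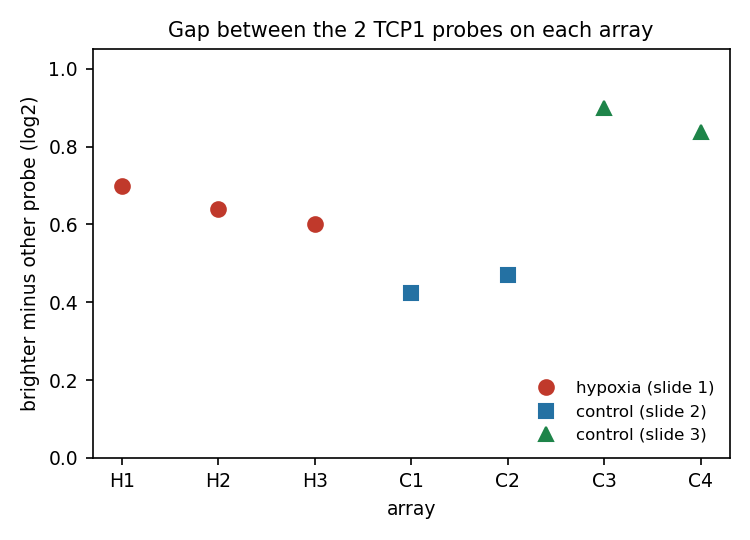
Log2 level of the brighter TCP1 probe minus that of the other TCP1 probe on each array, with hypoxia arrays (H1 to H3) left of control arrays (C1 to C4) and 1 colour and symbol per slide. The gap lies between 0.60 and 0.70 on the hypoxia slide, at 0.42 and 0.47 on control slide 2, and at 0.84 and 0.90 on control slide 3.

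The same comparison over all source sequences with exactly 2 tested probes, 452 in number, showed how common this is. In 32 of them, or 7.08%, the gap between the probes did not overlap among the 3 slides. The gap of TCP1 had a range of 0.47 over the arrays, near the median range of 0.42, and 53.8% of the pairs had a smaller one. The size of the TCP1 gap's movement is thus ordinary for probe pairs of 1 transcript. A typical pair differed by 0.108 in its 2 hypoxia minus control values, and 80.8% of pairs agreed in sign.

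CRYAB was the most variable of the 4 genes and had no difference between the groups that the test could detect. Processed intensities were 16052, 20218 and 13017 in hypoxia, against 11618, 22888, 17321 and 14130 in control. In log2 levels these are 2.63, 3.20 and 2.47 in hypoxia, against 2.49, 3.50, 2.57 and 2.57 in control. Hypoxia replicate 2 and control replicate 2 stand above the remaining fetuses, and the groups overlap throughout. Means were 2.77 ± 0.38 (SD, n = 3) in hypoxia and 2.79 ± 0.48 (SD, n = 4) in control. The log2 difference was -0.02 (SE 0.29), with a 95% interval of -0.69 to 0.65 and an adjusted limma p of 0.983.

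Within groups, CRYAB varied more than 86.3% of tested probes, and its interval is the widest of the 4 genes. Leaving out control replicate 2 gave a log2 difference of 0.22, and leaving out hypoxia replicate 2 gave -0.24, so the sign depends on which of these fetuses is included. It was also positive without hypoxia replicate 1 (0.05) or hypoxia replicate 3 (0.13). Slide does not separate its values: the fetuses with 2.49 and 3.50 share slide 2. Markers of astrocytes had a mean level of 1.31 in hypoxia replicate 2 and of 1.30 in control replicate 2, which are the lowest hypoxia value and the highest control value of that list.

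Over the 7 arrays, the named genes most like each chaperone were ranked by the root mean square difference of their levels after each gene's own mean was taken off, among 842 genes. The arrays share slides and scaling, so likeness is a description only. For HSP90AA1 the nearest were CSN2 (0.08, the milk protein beta-casein), CTSL2 (0.10, a lysosomal cathepsin) and CYP17A1 (0.10, a steroidogenic enzyme). Genes near DNAJA1 included SLC25A33 (0.05, a mitochondrial nucleotide carrier) and NCK1 (0.08, a signalling adaptor). TCP1 lay nearest to NUS1 (0.06, which serves dolichol synthesis), ARG2 (0.07, mitochondrial arginase) and the gene the files call NRF-2 (0.08).

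CRYAB, whose levels span 1.03 on the log2 scale, lay farther from its nearest genes on this measure, which is not scaled to a gene's range. The smallest differences were 0.17 for AANAT, the melatonin pathway enzyme, 0.19 for RHOB, a small GTPase, and 0.19 for KIT, a receptor tyrosine kinase. AANAT had log2 levels of -3.95, -3.67 and -3.88 in hypoxia, against -4.01, -3.04, -3.82 and -4.16 in control. Like CRYAB it was highest in control replicate 2, and hypoxia replicate 2 was the highest hypoxia array for all 4. The 3 genes were picked for likeness to CRYAB over these same arrays, so the shared high arrays follow largely from that choice. KIT was dim, well above background on 5 of 7 arrays. Among the chaperones themselves, HSP90AA1 and DNAJA1 were nearest to each other at 0.14, DNAJA1 and TCP1 followed at 0.15, and CRYAB lay 0.39 to 0.48 from the others.

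**Figure D3:**
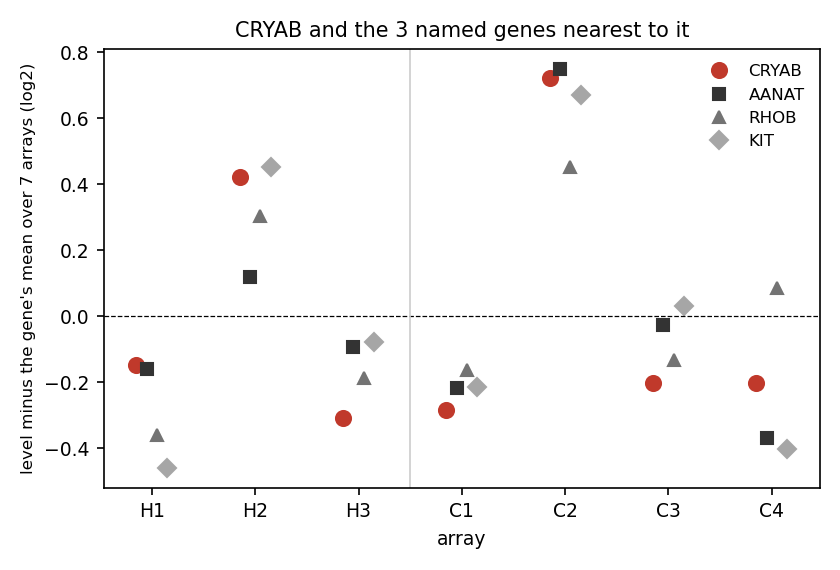
Log2 level minus the gene's own mean over the 7 arrays for CRYAB (red circles) and the 3 named genes nearest to it, AANAT, RHOB and KIT (grey and black symbols), with hypoxia arrays left of control arrays. All 4 stand highest in control replicate 2, at 0.72 for CRYAB and 0.75 for AANAT, and the 3 were picked for likeness over these same arrays.

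Around these 4 genes, the array measured 11 other genes of the chaperone lists with 18 probes, all of them tested. Main probes were higher in hypoxia for 8 genes and lower for 3, beside 6955 higher and 5756 lower of the 12711 tested probes. The median log2 difference of the 11 genes was 0.05, against a median of 0.03 over all tested probes. None of the 11 passed the adjusted threshold. On main probes none had an unadjusted limma p under 0.05, beside 15.7% of all tested probes, and none had groups without overlap, beside 16.2%. On their other probes CRYAA and PPIB did have groups without overlap, and CRYAA had an unadjusted limma p of 0.0108 there. Of the HSP90 list of 20 genes, the HSP40 list of 30 and the chaperonin and prefoldin list of 25, only HSP90AA1, DNAJA1 and TCP1 were measured under a name used here, while most probes of the array are unnamed.

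CRYAA, the small heat shock protein that pairs with CRYAB in the lens, had the largest difference of the 11. Its main probe gave log2 levels of -2.16, -1.95 and -1.93 in hypoxia, against -2.53, -2.18, -2.45 and -2.15 in control. The groups overlap only where hypoxia replicate 1 lies just under control replicate 4. The log2 difference was 0.31 (SE 0.13, adjusted p = 0.323). On its other probe the groups did not overlap, with -2.12, -1.99 and -1.93 in hypoxia against -2.72, -2.48, -2.40 and -2.25 in control. That difference was 0.45 (SE 0.13, adjusted p = 0.216), which did not pass the threshold. Its unadjusted limma p was 0.0108 and its exact 2-sided permutation p was 0.0571. In hypoxia 8.76% of all tested probes lay above control without overlap.

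Of the list of 27 genes of the HSP70 family and its partners, 4 were measured under a name used here. HSP70.1, the file's symbol for a stress-inducible HSP70, had levels of 0.67, 0.50 and 0.93 in hypoxia, against 0.53, 0.57, 0.18 and 0.96 in control. The log2 difference was 0.14 (SE 0.20, adjusted p = 0.755), and its second probe gave 0.27 (SE 0.21). HSPA5, the HSP70 of the endoplasmic reticulum, differed by 0.05 (SE 0.12, adjusted p = 0.885) on its main probe and by 0.16 (SE 0.20, adjusted p = 0.729) on the other. BAG6, a chaperone for proteins bound for membranes or for degradation, differed by -0.01 (SE 0.13, adjusted p = 0.967) on its main probe and by -0.06 (SE 0.14) on the other. GRPEL1, the nucleotide exchange factor of mitochondrial HSP70, differed by -0.08 (SE 0.12, adjusted p = 0.790) on its main probe and by -0.17 (SE 0.16) on the other.

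None of the 6 measured chaperones and disulphide isomerases of the endoplasmic reticulum passed the threshold. On main probes their log2 differences ran from -0.07 for ERP44, which retains client proteins in the early secretory pathway, to 0.06 for ERP29. PDIA4 and PDIA5, both protein disulphide isomerases, differed by 0.05 and 0.06. PPIB, the prolyl isomerase of the endoplasmic reticulum, had a difference of 0.02 on its main probe and of -0.14 (SE 0.10, adjusted p = 0.503) on the other, where hypoxia lay below control without overlap. In either direction, 16.2% of all tested probes had groups without overlap. Of a list of 29 heat shock factors and classical HSF1 targets, 6 were measured, all of them targets: HSP90AA1, UBB at 0.13 (SE 0.14, but -0.06 with quantile normalization), HSP70.1, DNAJA1, TCP1 and CRYAB. UBB, which encodes polyubiquitin, had log2 levels of 7.46 to 7.67 in hypoxia and 7.20 to 7.62 in control. Over the 6, 4 were higher and 2 were lower in hypoxia, with a median log2 difference of 0.14 and none called. Of the 12711 tested probes 6955 were higher, and the median was 0.03.

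**Figure D4:**
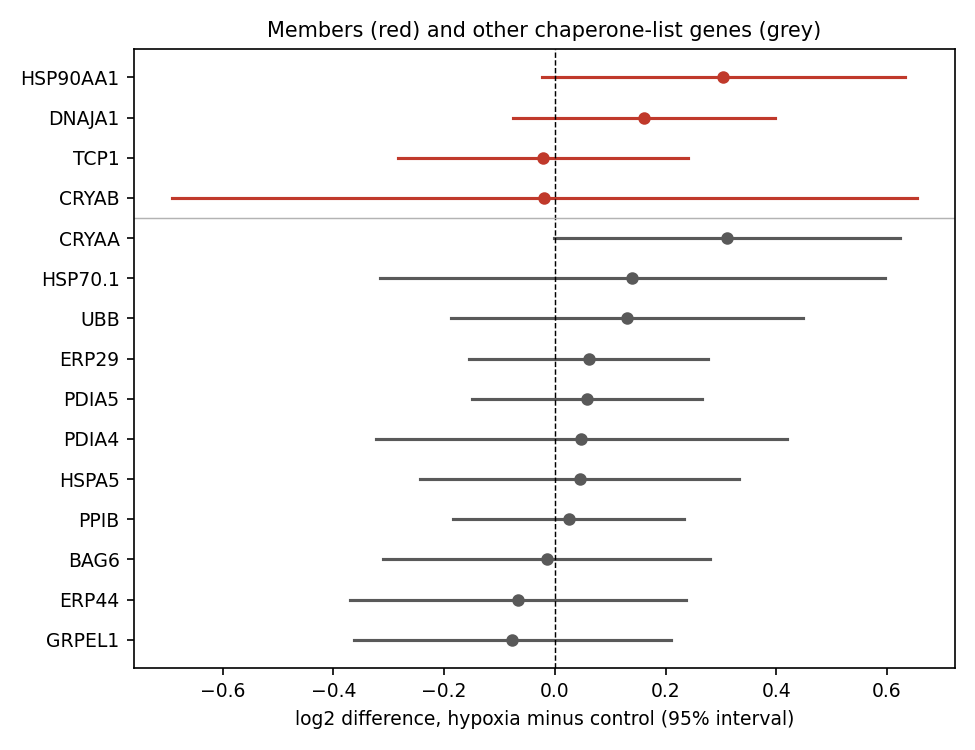
Log2 difference, hypoxia minus control, with its 95% interval from limma for the main probe of the 4 chaperone genes (red) and of the 11 other measured genes of the chaperone lists (grey, ordered by difference). All 15 intervals include 0, and the upper ones, for HSP90AA1 and CRYAA, only just do so with lower ends of -0.02 and -0.0023.

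Alternatives that changed the processing, the fit or the fetuses included moved the 4 genes to unequal degrees. Changing the filter on dim probes, a random slide block and a trended and robust prior returned each reported log2 difference unchanged. They count among the alternatives below but do not bear on the sign. The replicate block gave the same differences as leaving out control replicate 4. Over 20 alternatives the log2 difference of HSP90AA1 stayed positive, between 0.13 and 0.48, with an unadjusted limma p under 0.05 in 5 of them and adjusted p between 0.120 and 0.763. DNAJA1 also stayed positive, between 0.11 and 0.24, with adjusted limma p between 0.309 and 0.852. Quantile normalization gave 0.24, about 1.5 times the reported value, and was the 1 alternative with an unadjusted limma p under 0.05 for DNAJA1. The TCP1 difference changed sign in 7 of 21 alternatives and ran from -0.10 to 0.06, while that of CRYAB changed sign in 6 of 20 and ran from -0.24 to 0.22. Both ends for HSP90AA1 and for TCP1 came from fits against 1 control slide alone. Both ends for CRYAB came from leaving out 1 fetus.

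**Figure D5:**
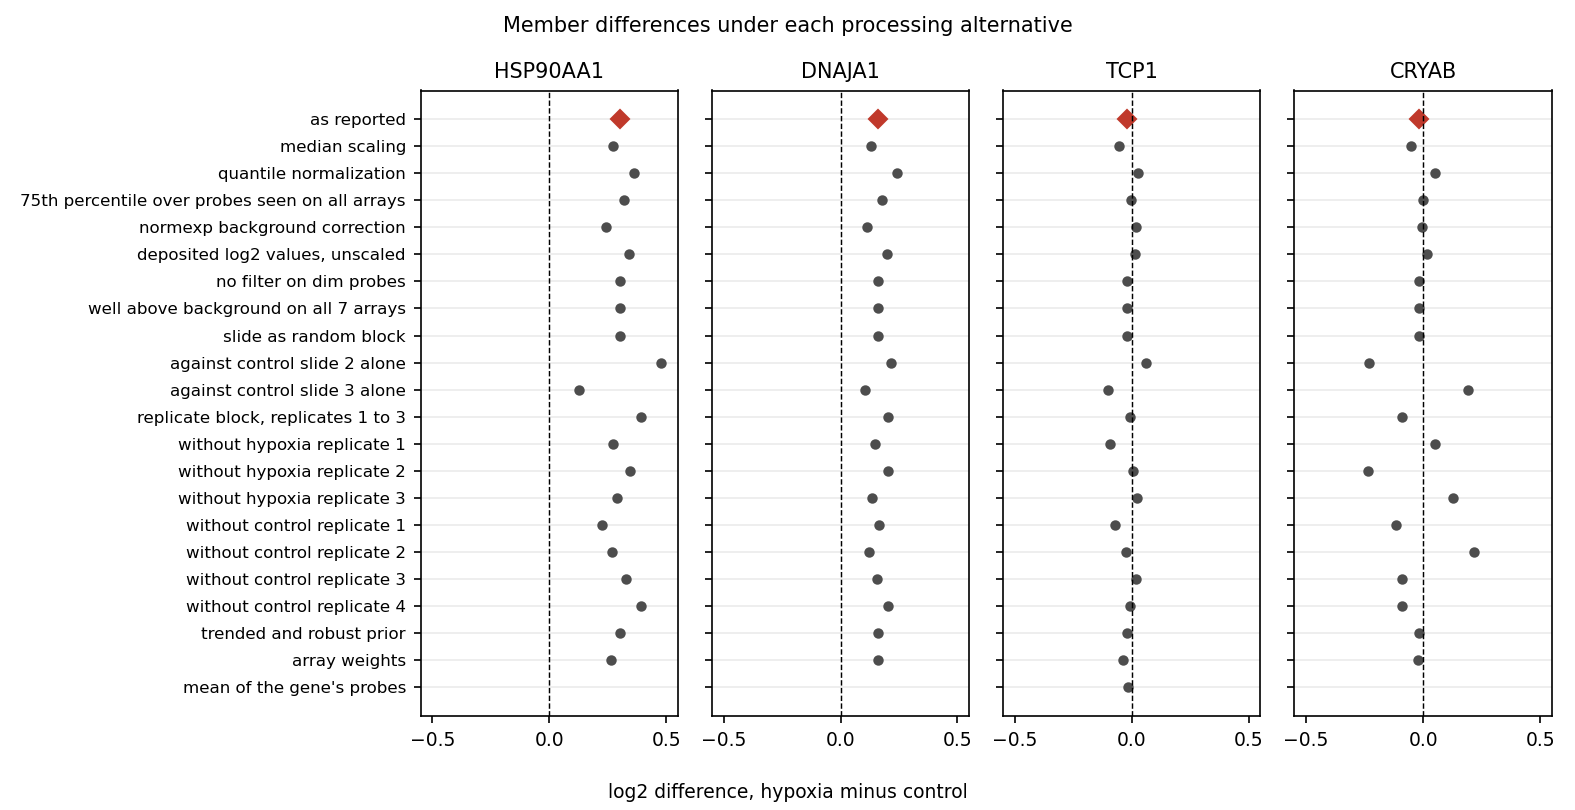
Log2 difference, hypoxia minus control, of the main probe of each chaperone gene as reported (red diamonds) and under each alternative (grey points). Alternatives, named on the vertical axis, change the processing, the fit or the fetuses included. HSP90AA1 and DNAJA1 lie right of 0 throughout, and TCP1 and CRYAB lie on both sides of it.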

How the data were processed

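Hypothalamic RNA was labelled with Cy3 and hybridised to 1-colour Agilent sheep arrays. Per the file headers, the processed intensity of each spot is a background-subtracted and detrended signal from Agilent Feature Extraction 10.1.1.1. The log2 values in the deposited table equal the log2 of it on each array (within 5e-09), with no scaling, with array medians of 8.69, 8.48 and 8.62 for hypoxia and 8.31, 8.34, 8.87 and 8.60 for control. They carry no centring or direction.

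Levels are log2 ratios of the processed intensity to the array's 75th percentile over non-control spots. Outlier spots and control spots were dropped, saturated ones stayed, and repeat spots were averaged. This left 34 values, each of a probe on an array, missing. The tested set, 12711 of 15008 probes, had to be well above background in 3 or more of the 7 arrays, whatever their group. limma 3.58.1 (R 4.3.3, lmFit and eBayes, 2-sided, no covariates) compared hypoxia with control, with Benjamini-Hochberg adjustment over the tested probes. Control slides were compared in a fit with slide as the factor. The procedure was tested on simulated data. Groups come from the sample titles.

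Probes were named by accession (703), gene ID (122), symbol (500), synonym (22) or older name or description (23), through RefSeq's table of ARS-UI_Ramb_v3.0. Another 200 kept the file's symbol, 91 had a locus number only and 13347 stayed unnamed. A gene's main probe has the highest mean level. All probes of the 4 genes are reported, as are the measured genes of 7 chaperone lists, those with the 2 largest differences per list or an unadjusted p under 0.05 in full, and the 3 nearest genes by likeness, of which 1 is not reported here. The genes, lists and alternatives were chosen with earlier results of these data known. The symbol HSP70.1, older names such as that of DNAJA1, and the hypothalamic peptide genes were added after the files were seen. A planned search of promoters for heat shock elements was not done, since no promoter sequences were at hand. The number of arrays limits the precision.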

Additional observations from a re-analysis of the deposited data

Results flagged for a closer look

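In 28 sets of control values tested for a single distant fetus, 2 were found, against 1.4 that chance would give. CRYAB in control replicate 2 had a log2 level of 3.50, while the other 3 controls lay between 2.49 and 2.57. NEFH, the only neuron marker measured, had a log2 level of -2.43 in control replicate 1, while the other 3 controls lay between -3.46 and -3.37.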

How the results depend on the processing

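Of 461 alternative values over 23 probes of the 4 genes and the other chaperones, none passed an adjusted p of 0.05, and the lowest adjusted limma p was 0.0890. No difference that changed sign had passed the threshold, and the cause was not tested. With quantile normalization the log2 difference was 0.0281 for TCP1, 0.0106 for its other probe, 0.0498 for CRYAB and -0.0573 and -0.0994 for the 2 UBB probes. With normexp it was 0.0199 for TCP1. With the deposited values it was 0.0153 for TCP1, 0.0263 for its other probe, 0.0174 for CRYAB and 0.0212 for BAG6. Taking the percentile only from probes detected on every array gave 0.00746 for the other TCP1 probe and 0.00229 for BAG6, array weights gave 0.0311 and 0.0192 for these, and median scaling gave -0.00728 for PPIB. Against slide 2 alone TCP1 differed by 0.0612 and PDIA4 by -0.0504. Against slide 3 alone CRYAB differed by 0.193, the other TCP1 probe by 0.119, the BAG6 probes by 0.114 and 0.0711, the HSPA5 probes by -0.0169 and -0.0540 and GRPEL1 by 0.00946. Leaving out 1 fetus at a time gave -0.0919 to 0.0238 for TCP1, -0.0555 to 0.0469 for its other probe, -0.236 to 0.219 for CRYAB, -0.0904 to 0.0665 and -0.136 to 0.0350 for the BAG6 probes, -0.162 to 0.0316 for ERP44, -0.0643 to 0.119 and -0.00724 to 0.243 for the HSPA5 probes and -0.0168 to 0.179 for PDIA4. HSP90AA1 stayed at 0.22 to 0.39 and DNAJA1 at 0.12 to 0.20 under this.

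The count of all probes called, 2 as reported, was 0 with the percentile from probes detected on every array, 0 with no filter on dim probes, 10 with normexp, 10 with the deposited values, 4 with array weights, 25 with probes well above background on all 7 arrays, 57 with a trended and robust prior and 342 against slide 2 alone, and 0 to 6 when 1 fetus was left out. Where the count was 0, limma gave 1735 to 2132 probes at an unadjusted p under 0.05. With the replicate number as a block over replicates 1 to 3, 0 probes were called, and HSP90AA1 differed by 0.39 and DNAJA1 by 0.20. Leaving out control replicate 4 without a block gave the same differences, so the block itself did not move them. Same-numbered fetuses had correlations of 0.121, 0.0876 and 0.107 between their deviations from the group means. Each correlated best with its own number, a hint from the data and not from the design, so the numbers were not taken as pairs. The random slide block had an estimated correlation of -0.03. With 3 against 4 fetuses the 95% interval of the log2 difference reached 0.24 to either side for DNAJA1 and 0.67 for CRYAB, before any adjustment over probes.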
